A study of Homo sapiens with 4 samples.

Results

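In HCT116 cells, 811 strong peaks of the first MTA1 ChIP library lay at the ends of protein-coding genes and met no peak of the second. They come from list 1, the authors' peak calls for ChIP library 1 against its control, and were chosen by 4 conditions, of which the score and the overlap are measured values. The peak lay on chromosomes 1 to 22, its score was 106.67 or more, it overlapped no peak of list 2 by even 1 bp, and its midpoint lay within 1000 bp of either RefSeq end of a protein-coding gene. The score was assigned to each peak by the authors' caller, on a scale that neither the labels nor the lists state. Of the 31826 list 1 peaks on these chromosomes, 3189 reached the score, 968 of those lay at a gene end, and 811 of the 968 had no list 2 overlap, which is 2.55% of the list. They are called unreplicated strong peaks below. The other 157 gene-end peaks of that score are called replicated strong peaks, and the 3483 gene-end peaks below the score and without overlap are called weaker unreplicated peaks.

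The series held 4 libraries of HCT116, an established epithelial line from a human colorectal carcinoma. Of these, 2 were made from MTA1 immunoprecipitates of formaldehyde-fixed chromatin and 2 from input chromatin made without an antibody. No genetic change or treatment is named for any library, and the labels do not say whether the libraries numbered 1 and 2 came from separate cultures. The authors' calls form 2 lists, each with 1 ChIP library against 1 control: list 1 held 32042 peaks and list 2 held 31079. With 1 library behind each list there was no spread between samples, so no difference below was tested. Intervals are 95% Wilson intervals, which cover counting error only, and peaks and genes are not replicates of a condition.

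MTA1 is a subunit of NuRD, a complex that joins histone deacetylases to a nucleosome remodelling ATPase. It is found at promoters and enhancers and is often raised in carcinomas. Promoters of widely used genes mostly lie in CpG islands, stretches where the dinucleotide CG is kept at a high density, and many pairs of such genes start back to back from a shared island. The strongest of the unreplicated strong peaks sat on promoters of this kind, and several of these promoters carried the same short run of letters.

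The promoters of 8 of the 25 best-scoring unreplicated strong peaks are shown so that promoters with and without the element counted below can be compared. They are the first 8 in score order in which no other gene overlapped the stretch printed. Each line gives the 250 bases before the RefSeq start (GRCh38.p14), 5′ to 3′ on the strand of the gene. Capitals mark the letters ACT, any base, CA, any 2 bases and TCCC, on either strand.
GSK3A, chr19:42242603-42242852, minus strand: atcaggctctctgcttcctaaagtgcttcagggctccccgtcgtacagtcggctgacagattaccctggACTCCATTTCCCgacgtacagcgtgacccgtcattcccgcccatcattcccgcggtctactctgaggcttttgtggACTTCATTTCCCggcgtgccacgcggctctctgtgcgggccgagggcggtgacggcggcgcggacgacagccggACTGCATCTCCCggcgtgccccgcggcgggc
ABCF2, chr7:151227206-151227455, minus strand: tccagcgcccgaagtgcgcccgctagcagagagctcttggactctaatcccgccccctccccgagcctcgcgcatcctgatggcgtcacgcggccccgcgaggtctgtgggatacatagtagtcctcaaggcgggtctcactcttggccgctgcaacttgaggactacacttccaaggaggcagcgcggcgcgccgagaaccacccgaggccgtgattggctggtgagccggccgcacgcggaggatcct
ADO, chr10:62804470-62804719, plus strand: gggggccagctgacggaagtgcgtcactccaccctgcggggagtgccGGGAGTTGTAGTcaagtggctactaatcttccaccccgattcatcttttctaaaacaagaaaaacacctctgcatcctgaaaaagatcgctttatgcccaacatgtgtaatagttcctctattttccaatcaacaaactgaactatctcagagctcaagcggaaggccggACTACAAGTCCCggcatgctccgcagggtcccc
TSSC4, chr11:2400500-2400749, plus strand: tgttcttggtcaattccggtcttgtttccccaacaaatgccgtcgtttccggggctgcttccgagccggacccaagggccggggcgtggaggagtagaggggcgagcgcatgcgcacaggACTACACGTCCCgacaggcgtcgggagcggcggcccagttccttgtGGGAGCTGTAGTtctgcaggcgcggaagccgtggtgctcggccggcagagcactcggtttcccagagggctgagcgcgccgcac
GATB, chr4:151761008-151761257, minus strand: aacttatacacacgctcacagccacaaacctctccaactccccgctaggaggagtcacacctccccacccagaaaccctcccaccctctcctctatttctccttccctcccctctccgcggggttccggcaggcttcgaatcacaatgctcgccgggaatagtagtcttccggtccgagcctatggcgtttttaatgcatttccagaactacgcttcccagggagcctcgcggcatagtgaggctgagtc
ZNF384, chr12:6689573-6689822, minus strand: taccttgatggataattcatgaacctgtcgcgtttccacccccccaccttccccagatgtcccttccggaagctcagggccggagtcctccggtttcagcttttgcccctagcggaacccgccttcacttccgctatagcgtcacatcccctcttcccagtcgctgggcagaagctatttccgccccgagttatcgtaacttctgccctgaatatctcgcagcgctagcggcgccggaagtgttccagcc
NCLN, chr19:3185680-3185929, plus strand: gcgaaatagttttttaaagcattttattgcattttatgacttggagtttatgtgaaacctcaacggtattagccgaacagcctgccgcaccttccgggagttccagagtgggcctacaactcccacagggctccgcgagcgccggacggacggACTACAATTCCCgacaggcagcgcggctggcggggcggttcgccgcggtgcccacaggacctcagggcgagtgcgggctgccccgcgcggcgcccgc
MRPS15, chr1:36464385-36464634, minus strand: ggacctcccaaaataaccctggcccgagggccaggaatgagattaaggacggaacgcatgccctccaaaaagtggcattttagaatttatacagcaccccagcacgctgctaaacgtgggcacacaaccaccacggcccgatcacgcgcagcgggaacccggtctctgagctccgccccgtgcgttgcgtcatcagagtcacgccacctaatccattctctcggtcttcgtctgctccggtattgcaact

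GSK3A, the kinase glycogen synthase kinase 3 alpha, held 3 such runs, none of which had A as the fourth base. ADO, a thiol dioxygenase, held 2, and so did TSSC4, a factor in spliceosome assembly. NCLN, an endoplasmic reticulum membrane protein, held 1. In all 5 runs of these last 3 genes the fourth base was A. The element counted below is this narrower form, the letters ACTACA, any 2 bases and TCCC. ABCF2, GATB, ZNF384 and MRPS15 held no match, while ZNF384 held 3 copies of CCGGAAG, the core bound by ETS factors. As background, runs of this kind are known from promoters bound by the zinc finger protein ZNF143 and by THAP11. A match is a description of letters, and no binding of either factor was measured here.

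Scores of the unreplicated strong peaks ran from 106.74 to 603.78 with a median of 137.09. The replicated strong peaks had a median of 161.99 and reached 2348.1, and the weaker unreplicated peaks had a median of 65.36. The scores of the replicated and unreplicated strong peaks overlapped up to 603.78. Of all gene-end peaks of list 1 at any score, 7.42% met a list 2 peak, and of those at or above 106.67 it was 16.2%. Among the 25 best gene-end peaks, 19 (76.0%, 95% interval 56.6 to 88.5%) met a list 2 peak, against 41 of the 100 best. The share was 28.9% in the best 25% of the 968 peaks, and then 14.9%, 11.98% and 9.09% in the next 3 sets of that size. The scores are what the rule used, so they describe the set and support nothing further.

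**Figure D1:**
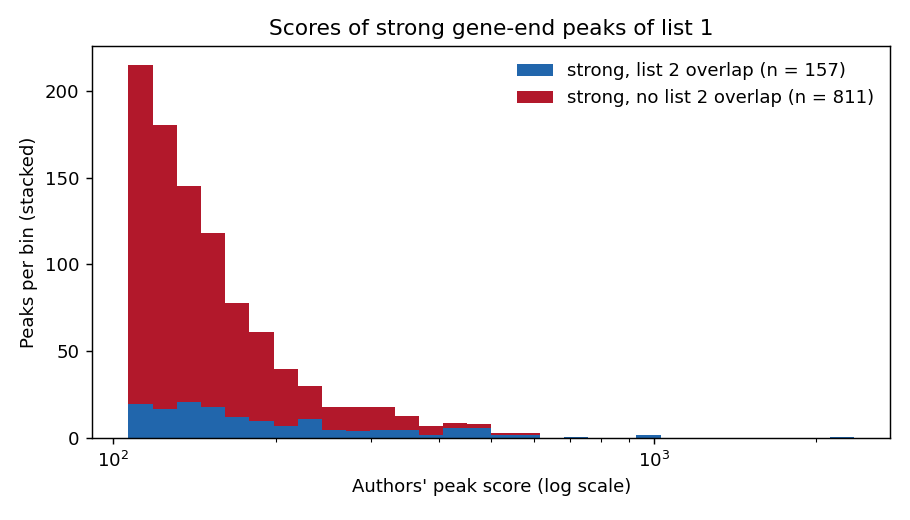
Number of strong gene-end peaks of list 1 in each bin of the authors' score (log axis), with peaks that met a list 2 peak in blue (157) and those that did not in red (811), stacked. Red makes up most of every bin near the score of 106.67, and all peaks above the score of 603.78 are blue.

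The unreplicated strong peak with the highest score, 603.78, lay at GSK3A (chr19:42241982-42243728), a kinase of insulin and Wnt signalling. ABCF2, an ATP-binding cassette protein without membrane domains, followed at 507.19 (chr7:151226650-151227667). ADO had 496.05 (chr10:62804013-62805987) and TSSC4 had 486.52 (chr11:2399594-2401390). These 4 scores stand above the rest of the set, whose next peak had 427.83. That peak (chr4:2008694-2009675) covered the 3′ end of LOC124900839 and the start of NELFA, a subunit of the complex that holds RNA polymerase II paused near promoters. All of these peaks but the NELFA one had the 5′ end of a gene as their nearest end.

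The next peaks lay at UNK, an RNA-binding zinc finger gene (425.15), and GATB, a subunit of a mitochondrial tRNA amidotransferase (411.95). MDH1, the cytosolic malate dehydrogenase, had a peak of 401.62. The peak over the starts of BIVM and POGLUT2, an O-glucosyltransferase gene, scored 390.76, and that of ZNF384, a zinc finger transcription factor, scored 388.41. HMBOX1 and INTS9, the latter a subunit of the Integrator complex, shared a peak of 378.21. SCGB2B2 had a peak of 376.72, NCLN of 363.58, and the shared start of TYW5, which modifies tRNA, and MAIP1 of 361.05.

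MRPS15, a protein of the small mitochondrial ribosomal subunit, had 357.98 and TMEM115, a Golgi membrane protein, 345.66. IGHMBP2, a helicase, and MRPL21, of the large mitochondrial subunit, shared a peak of 345.61, next to 345.52 at SFSWAP, a splicing regulator. The list of 25 closes with VCPIP1, a deubiquitinase (339.59), NUDCD1 with ENY2, a subunit of the SAGA complex (336.24), RBL1, the retinoblastoma-like protein p107 (331.23), and ACADL, an acyl-CoA dehydrogenase (326.21). ELOC, elongin C, had 325.87, ZFYVE28 with CFAP99 had 324.06, and ING4, a reader of methylated histone H3, had 320.91. None of the 25 had a list 2 peak closer than 1604 bp, the distance at ING4.

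Which end of the gene a peak lay at was not part of the rule. No strand or promoter was available for any gene of chromosome 8, which held 39 of the 811 peaks. Shares below by gene end, back-to-back start or promoter sequence thus leave that chromosome out. Strand was known for the nearest gene of 645 of the 811 peaks, and 553 of these (85.7%, 82.8 to 88.2%) had the 5′ end as their nearest end. The share was 91.8% (112 of 122) among replicated strong peaks and 73.4% (2013 of 2741) among weaker unreplicated peaks. Applied to list 2 at the same rank share, the rule gave 107 peaks, of which 61 of 83 (73.5%, 63.1 to 81.8%) were at a 5′ end. The intervals of the unreplicated strong peaks and the weaker ones did not overlap, whereas those of the unreplicated and replicated strong peaks did. Without list 2 overlap, the 5′ share went from 69.3% at scores of 50 to 60 to 95.7% (45 of 47) at 250 and over.

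Where a transcript start lay within 1000 bp, which held for 557 of the unreplicated strong peaks, the peak covered it in 499 (89.6%, 86.8 to 91.9%). The replicated strong peaks covered it in 111 of 115 cases (96.5%) and the weaker ones in 67.0%. Midpoints lay a median of 54 bp downstream of the start, with an interquartile range from -80 to 274 bp. Downstream midpoints numbered 330 (59.2%, 55.1 to 63.3%), against 50.4% (41.4 to 59.4%) of the replicated strong peaks. The weaker unreplicated peaks had nearly the same share, 60.7% (58.5 to 62.8%), so the downstream position is not particular to the strong ones. The unreplicated strong peaks were 1154 bp wide at the median, the replicated ones 1110 bp and the weaker ones 809 bp. The narrowest, 404 bp, lay at PWP1, and the widest, 5770 bp, at MVD, the mevalonate diphosphate decarboxylase.

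**Figure D2:**
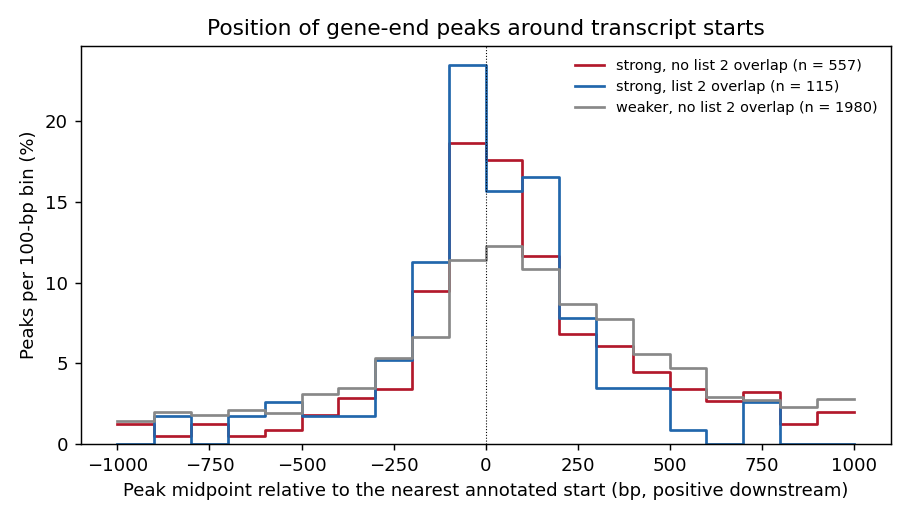
Share of peaks (%) in 100-bp bins of the distance from the nearest annotated transcript start to the peak midpoint, positive downstream, for unreplicated strong peaks (red, n = 557), replicated strong peaks (blue, n = 115) and weaker unreplicated peaks (grey, n = 1980). All 3 curves are highest next to the start, and the grey curve is the flattest.

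Of the 811 peaks, 160 (19.7%, 17.1 to 22.6%) had ends of 2 or more protein-coding genes within 1000 bp. Genes annotated with the same end, such as ABCF2 and ABCF2-H2BK1, were counted separately. The share was 15.3% (10.5 to 21.7%) among replicated strong peaks and 13.8% (12.7 to 15.0%) among weaker ones. Back-to-back starts were counted where a minus strand gene and a plus strand gene both had their 5′ end within 1000 bp, overlapping genes included. They lay at 90 peaks (14.0%, 11.5 to 16.8% of those with strand). That compares with 11.5% and 8.06% in the other classes. The 90 peaks had 96 such pairs in reach, not always with both starts under the peak. Genes annotated at the same start each form a pair, and a pair in reach of 2 peaks counts for each. In 74 pairs the genes did not overlap, and in the others the spacing went down to -1202 bp. The median spacing over the 96, negative values included, was 146 bp.

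POGLUT2 and BIVM start 143 bp apart under the peak of 390.76. KBTBD4 and NDUFS3, a core subunit of respiratory complex I, start 104 bp apart under a peak of 314.73. THAP4 and ATG4B, an autophagy protease, start 117 bp apart (307.23), and EIF1AD and BANF1, the barrier to autointegration factor, 346 bp apart (273.04). RPGRIP1L, a ciliary gene, and FTO, an RNA demethylase, start 104 bp apart (266.44). A single peak of 160.15 covered the starts of HSPD1 and HSPE1, the mitochondrial chaperonin and its partner, and of the read-through gene HSPE1-MOB4. The most crowded peak, at SLX4IP and MKKS on chromosome 20, had ends of 4 genes in reach at a score of 241.93. Those of MKKS, LOC128706665 and LOC128706666 were the same position, 895 bp from the midpoint. After it came peaks with ends of 3 genes at LRRC8A (180.93), NEDD8 (171.27), HSPD1 and TBC1D22B (145.3). Among these, NEDD8 and NEDD8-MDP1 share a start, as do HSPE1 and HSPE1-MOB4, and TMEM217 and TMEM217B. At such peaks the data do not tell which gene a peak belongs to.

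Promoter sequence was not used by the rule. It was read from RefSeq windows of 300 bases (250 before and 50 after the start), which matched 557 peaks. The median ratio of observed to expected CpG was 0.855 at the unreplicated strong peaks (interquartile range 0.752 to 0.954), 0.877 at replicated strong peaks, 0.842 at weaker ones, and 0.765 over the outermost starts of 15101 protein-coding genes. A ratio above 0.6 was found in 508 of the 557 promoters (91.2%, 88.6 to 93.3%). It was found in 97.4% at replicated strong peaks, 83.4% at weaker ones and 61.0% of promoters without a list 1 peak at either end of the gene. GC content was 66.7% at the median, close to the 67.0% at weaker peaks and above the 62.7% over all genes. The promoters under these peaks were thus mostly of the CpG-rich kind.

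The 12-letter element, ACTACA, any 2 bases and TCCC on either strand, was noticed in the promoters of the best peaks after 11 other motifs had been counted, so its share among the best peaks is no independent evidence. It stood in 84 of the 557 promoters (15.1%, 12.3 to 18.3%). Over all 15101 promoters of that length it stood in 2.86%, and over the 11256 of genes without a list 1 peak at either end in 1.55% (1.34 to 1.80%). Leaving out the 25 best peaks, from which it was read, 77 of 538 promoters held it (14.3%, 11.6 to 17.5%). The replicated strong peaks, which were not read, held it in 22 of 115 (19.1%, 13.0 to 27.3%), and the weaker ones in 95 of 1932 (4.92%, 4.04 to 5.97%). Among CpG-rich promoters alone the shares were 15.6% at the unreplicated strong peaks and 3.96% over all such promoters. With any base in the fourth place, which also takes in the 3 runs at GSK3A, the element stood in 99 of the 557 (17.8%) and in 3.60% of all promoters.

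Without list 2 overlap, the share with the element was between 3.24% and 5.26% at scores from 50 to 90. It was 9.45% (6.66 to 13.2%) from 90 to 106.67, 8.80% (5.70 to 13.3%) from 106.67 to 130, 12.2% from 130 to 170, 26.8% (26 of 97) from 170 to 250, and 31.9% (15 of 47) at 250 and over. The last bin includes the 25 best peaks, in which the element was noticed, and without them it was 28.6% (8 of 28, 15.3 to 47.1%). The intervals just below and just above the score of 106.67 overlap. The peaks that held it had a median score of 167.56, against 136.6 for those without. Their midpoints lay closer to a gene end, at a median of 94.5 bp against 198 bp. The 84 promoters held 102 matches, 18 of them with 2 matches each, and 83 of the 102 lay within the 150 bases before the start, with the median 82 bases before it.

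**Figure D3:**
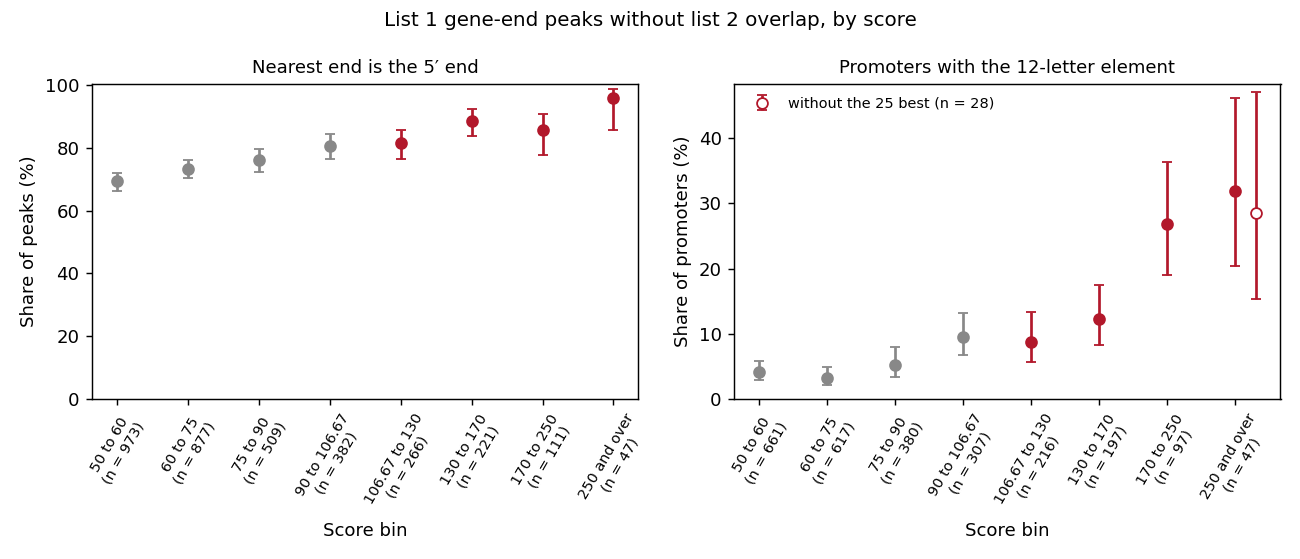
Gene-end peaks of list 1 without list 2 overlap in bins of the authors' score: the share (%) whose nearest end is a 5′ end (left) and the share (%) of their promoters with the 12-letter element (right), with 95% Wilson intervals. The unreplicated strong peaks are red and the weaker ones grey, and the open point is the highest bin without the 25 best peaks, in which the element was noticed. The element stands at 4.08% in the lowest bin and at 26.8% from 170 to 250.

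Read from the side of the genes, 432 protein-coding genes had the element at their outermost start. Of these, 103 (23.8%, 20.1 to 28.1%) had an unreplicated strong peak at an end, against 4.57% of the 14669 genes without it. A list 2 peak at an end, which the rule did not ask for, was found for 55 of the 432 (12.7%, 9.91 to 16.2%) and for 6.29% (5.90 to 6.69%) of the others. Within CpG-rich promoters the list 2 shares were 13.2% (10.2 to 16.9%) and 7.78% (7.26 to 8.33%). The list 2 peaks of these genes include ones that meet a list 1 peak. At list 2 gene-end peaks that met no list 1 peak, 3 of 59 promoters held it for the 107 found by the same rule (5.08%, 1.74 to 13.9%), and at weaker ones 7 of 323 (2.17%, 1.05 to 4.41%), beside 2.86% of all promoters.

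After ADO, TSSC4, MDH1, BIVM, NCLN, TMEM115 and ZFYVE28, the best-scoring peaks with the element were RPIA, an enzyme of the pentose phosphate pathway (313.44), and the one at ETFDH and C4orf46 (299.56). PHB1, prohibitin of the mitochondrial inner membrane, had 280.35 and PSMD11, a proteasome subunit, 253.05. MICOS13, of the cristae junction complex, had 251.07, and NTHL1, a DNA glycosylase that starts next to TSC2, had 236.66. Zinc finger genes with the element included ZNF32 (232.65), ZSCAN22 (211.02), ZNF8 (195.51) and ZNF354B (192.37). The genes of this paragraph were taken in score order or picked after their values were seen.

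Other motifs gave smaller ratios to the share over all genes. The ETS core CCGGAAG stood in 23.9% (20.5 to 27.6%) of the promoters at unreplicated strong peaks, in 25.2% at replicated ones, 17.8% at weaker ones and 14.3% over all genes. AAGATGGCG, the letters bound by YY1, stood in 5.92% (4.25 to 8.20%), against 2.74% over all genes. Restricted to CpG-rich promoters, these shares were 25.4% against 19.9% for the ETS core and 6.50% against 3.95% for YY1. The GC box GGGCGG was found in 71.5% against 58.7% of all promoters, but within CpG-rich promoters in 74.0% against 77.5%. TATAAA stood in 4.31% against 9.83%, AGATAA, read by GATA factors, in 2.87% against 7.66%, and CCAAT in 29.8% against 36.1%. Within CpG-rich promoters TATAAA stood in 3.35% (2.10 to 5.29%) against 4.99%, and AGATAA in 2.76% (1.65 to 4.57%) against 3.69%. Both of these intervals include the share over all CpG-rich promoters. CCAAT stood there in 29.3% (25.5 to 33.4%) against 35.3%.

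The remaining 5 motifs differed by less than 2 percentage points between the unreplicated strong peaks and all genes. They were GCGCATGCG of NRF1 (3.95% against 2.79%), the cAMP response element TGACGTCA (3.23% against 2.62%) and the E-box CACGTG (9.52% against 8.71%). The AP-1 site TGANTCA stood in 3.95% against 5.64%, and CTCGCGAGA in 1.08% against 1.05%. No motif's letters hold those of another, save that the wider form of the 12-letter element holds the narrower one.

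**Figure D4:**
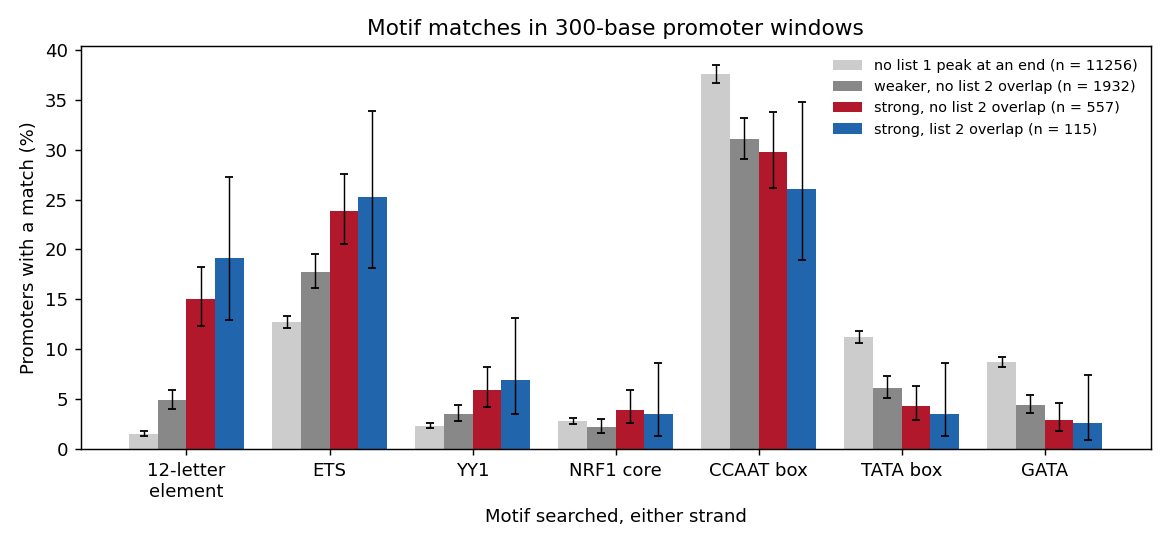
Share (%) of 300-base promoter windows with a match to each motif on either strand, for genes without a list 1 peak at an end (light grey, n = 11256), weaker unreplicated peaks (dark grey, n = 1932), unreplicated strong peaks (red, n = 557) and replicated strong peaks (blue, n = 115), with 95% Wilson intervals. The 12-letter element goes from 1.55% in the first group to 15.1% and 19.1% in the strong peaks, and the TATA box from 11.2% down to 4.31% and 3.48%. The shares are not restricted to CpG-rich promoters.

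Over the genome, 965 of 19126 protein-coding genes (5.05%) had an unreplicated strong peak at an end. A list 1 peak of any score lay at an end of 25.3% of them, and a replicated strong peak at an end of 0.952%. Counts of gene groups are to be read against the 5.05%. The groups were written with earlier results of these data known.

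A gene counts for its group whenever one of its ends is in reach, also where another gene is nearer. Counting only the nearest gene of each peak, the share over all genes was 4.21% (805 genes). Of 82 respiratory chain and ATP synthase genes, 9 (10.98%, 5.88 to 19.6%) had such a peak, led by NDUFS3 (314.73), NDUFAF8, an assembly factor of complex I (185.38), ATP5PF, of the ATP synthase stalk (178.52), ATP5F1D (154.01) and NDUFS7 (152.49). Only 6 of the 9 were the nearest gene (7.32%, 3.40 to 15.1%), since NDUFAF8, ATP5PF and NDUFC1 share their peaks with the nearer starts of TEPSIN, GABPA and NAA15. Of 77 mitochondrial ribosomal proteins, 8 (10.4%, 5.36 to 19.2%) did, with MRPS15 and MRPL21 ahead of MRPL20 (269.71), MRPL33 (194.45) and MRPL40 (134.91). Of these, 6 were the nearest gene (7.79%, 3.62 to 16.0%), MRPL21 and MRPL40 not. Counted by nearest gene, the intervals of both groups include 4.21%. Neither group had a replicated strong peak at any gene. Over all protein-coding genes that share was only 0.952%, so the absence does not set these groups apart.

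Cytosolic ribosomal proteins had such a peak at 7 of 81 genes (8.64%, 4.25 to 16.8%), among them RPL29 (204.76), RPL18 (193.72), RPS3 (184.66), RPL32 (152.17) and RPS26 (145.14). Translation factors and tRNA synthetases had 5 of 62, namely EIF2S2, a subunit of initiation factor eIF2 (196.02), EIF5B (184.92), EIF2B4 (158.41), KARS1 (125.41) and GARS1 (122.35). Proteasome, cullin, ubiquitin protease and F-box genes had 12 of 161 (7.45%), led by USP48 (279.26), PSMD11 (253.05), PSMC3, an ATPase of the proteasome cap (207.28), FBXL15 (185.74) and FBXW2 (165.41). The intervals of these groups include 5.05%. Counted by nearest gene, the ribosomal proteins kept 7 of 81, the translation group had 2 of 62 and the ubiquitin group 10 of 161. EIF5B, EIF2B4 and KARS1 were not the nearest gene of their peaks.

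Mitosis, spindle and centrosome genes had 6 of 92, among them TACC3, a spindle protein (305.34), and CENPT, of the inner kinetochore (223.79), followed by NUF2 (168.79), CENPB (167.68) and CEP131 (143.18). DNA replication and repair genes had 2 of 102, CDC45 of the replicative helicase (244.31) and RAD51C of homologous recombination (108.75). Splicing genes had 5 of 103, which were PTBP1 (208.78), SF3B2 (160.23), SF3B6 (155.59), SNRPB2 (137.01) and SRSF2 (108.08). RNA polymerase, general factor and Mediator genes had 3 of 82, namely NELFA and the Mediator subunits MED15 (183.26) and MED27 (160.31). Zinc finger genes named ZNF, ZSCAN or ZBTB had 29 of 558 (5.20%), with ZNF384 ahead of ZNF32, ZNF512B (230.28), ZNF133 (213.27) and ZSCAN22. The intervals of these groups, too, include 5.05%. By nearest gene, mitosis genes had 3 of 92, polymerase and Mediator genes 2 of 82 and zinc finger genes 26 of 558. The replication and splicing counts were unchanged. CENPT, NUF2 and NELFA were not the nearest gene of their peaks.

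Wnt pathway genes had 4 of 69, namely GSK3A, the R-spondin receptor LGR4 (161.99), the secreted Wnt inhibitor NOTUM (124.27) and the receptor FZD9 (113.32). AP-1 and MAPK genes had 3 of 55, which were ELK3 (194.28), MAPK9 (148.92) and MAP2K5 (120.87). The p53 and apoptosis genes had 2 of 46, DIABLO (159.57) and GADD45A (123.28). Among chromatin genes, the remodellers had 2 of 43, INO80B (152.98) and INO80 (121.15). Acetyltransferases and deacetylases had 2 of 48, HDAC10 (125.67) and the corepressor SIN3B (121.39), both at a 3′ end, though the first peak lay nearer to the start of TUBGCP6. Lysine methyltransferases and demethylases had 1 of 47, NSD3 (169.86), and replication-dependent histone genes 1 of 69, H1-3 (163.11). The NSD3 peak lay nearer to an end of LETM2. Genes typical of liver, blood, neurons or muscle had 1 of 57, RBFOX3, with 114.74 at its 3′ end, though that peak lay nearer to an end of ENGASE.

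No unreplicated strong peak lay at an end of 14 NuRD subunit genes, where a count of 0 allows up to 21.5% by the same interval. None lay at 23 genes reported as MTA1 targets (up to 14.3%), at 39 HOX genes (up to 8.97%) or at 40 colon epithelium genes (up to 8.76%). List 1 peaks of any score lay at 9 of the 23 reported targets, 16 of the 39 HOX genes, 8 of the 40 colon genes and none of the NuRD genes, to be read against the 25.3% of all genes. The upper bounds all lie above 5.05%, so these counts of 0 cannot be told apart from the share of all genes.

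Starts were looked up only for protein-coding genes of known strand with an end in reach, so other starts were not excluded. Peaks whose nearest gene end was a 3′ end, with no start of these genes in reach, numbered 81. Their median score was 124.34, against 137.99 for the 553 peaks at 5′ ends, and their median width 1429 bp against 1109 bp. They lay farther from the end, at a median of 509 bp against 170 bp. Another list 1 peak lay within 1 kb of 22 of them (27.2%) and of 52 of the 553 (9.40%). Chromosomes 16, 17 and 19, a grouping chosen after the positions were seen, held 34 of the 81 (42.0%) and 100 of the 553 (18.1%), and they hold 18.2% of all protein-coding genes. The best of the 81 lay at ARMH1 (276.51), RUSF1 (234.98), LBX2, a homeobox gene (225.48), CDC42EP2 (212.61) and CENPX, a Fanconi anaemia core and kinetochore protein (209.33). Strong list 1 peaks without list 2 overlap away from gene ends, 2122 in number, had a median width of 1227.5 bp and a list 1 neighbour within 1 kb in 22.1%. None of these differences was tested.

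At 11 genes an unreplicated strong peak lay at each end. PTBP1 had 208.78 at its 5′ end and 187.93 at its 3′ end, CDC45 had 244.31 and 107.66, AHSA1, a cochaperone of HSP90, 203.71 and 118.87, and HDGF 271.15 and 141.48. RNF126 had 141.86 and 120.43, and TSPAN10 had 151.32 and 128.87. RPL18 had the higher score at its 3′ end, 193.72 against 143.42, and so did LOC124900839, with 427.83 against 120.46. AAMP (107.39 and 305.83), OPLAH (169.6 and 145.78) and PLEKHG6 (107.3 and 161.78) had no strand in the table used. Several of these peaks lay nearer to an end of another gene. That gene was PRCC at the 5′ peak of HDGF, PLPPR3 at the 3′ peak of PTBP1 and NPLOC4 at the 5′ peak of TSPAN10. It was PNKD at the AAMP peak of 305.83, EXOSC4 at the OPLAH peak of 145.78 and TNFRSF1A at the PLEKHG6 peak of 161.78. The 3′ peak of RPL18 also had the start of FAM83E in reach, and that of LOC124900839 the start of NELFA. FAM217B and SYCP2 shared 2 peaks at a common start, and RTEL1 had 2 at one end (290.55 and 133.1).

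Distances to list 2 are a description, since the rule removes overlaps. A list 2 peak lay within 1 kb of 28 of the 811 peaks (3.45%), within 10 kb of 242 (29.8%, 26.8 to 33.1%) and within 100 kb of 754 (93.0%). Weaker unreplicated peaks had nearly the same shares, 3.39%, 26.9% and 92.2%. The closest pair was at HAUS4, an augmin subunit, where 1 bp separated the list 1 peak (116.28) from a list 2 peak of 63.95. The gap was 30 bp at NR2C1, a nuclear receptor, 43 bp at SOX5, 96 bp at FUT9 and 97 bp at EIF4E3, whose list 2 peak scored 101.48. Of the 965 genes, 40 (4.15%) had a list 2 peak at one of their ends, against 6.54% of all genes, and the rule lowers that count by removing overlaps.

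Interior peaks were counted away from both gene ends. The 965 genes held 14.9 list 2 peaks per Mb of gene, against 12.9 over all protein-coding genes, and 19.2 list 1 peaks per Mb against 13.9. Genes with a replicated strong peak at an end were close to them, with 13.9 list 2 and 18.8 list 1 peaks per Mb. The median length of the 965 genes was 25.01 kb against 24.48 kb over all genes. RBFOX3, GSE1 and RPTOR, picked here for their counts, held 70, 68 and 31 of the 1196 interior peaks of list 1 in the 965 genes. Of list 2 they held 1, 2 and 4. The list 1 density thus rests in part on a few genes.

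Chromosome 16 had the highest share of genes with an unreplicated strong peak, 69 of 854 (8.08%, 6.43 to 10.1%), followed by chromosome 9 (6.81%), 17 (6.76%) and 22 (6.65%). Chromosomes 5 (3.32%, 2.33 to 4.70%) and 6 (3.34%) had the lowest. Chromosomes 16, 9 and 17 lay above 5.05% by their whole interval and 5 and 6 below it. The share of genes with a list 1 peak of any score was also highest on chromosome 16 (35.7%) and lowest on 6 (18.6%) and 5 (19.2%). On chromosome 22 none of 25 strong gene-end peaks met a list 2 peak, while on chromosome 8 it was 15 of 54 (27.8%). These are the lowest and highest shares of any chromosome, picked after the values were seen, beside 16.2% over all chromosomes. The count of 0 allows up to 13.3%, and list 2 held 449 peaks on chromosome 22 against 1094 in list 1.

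**Figure D5:**
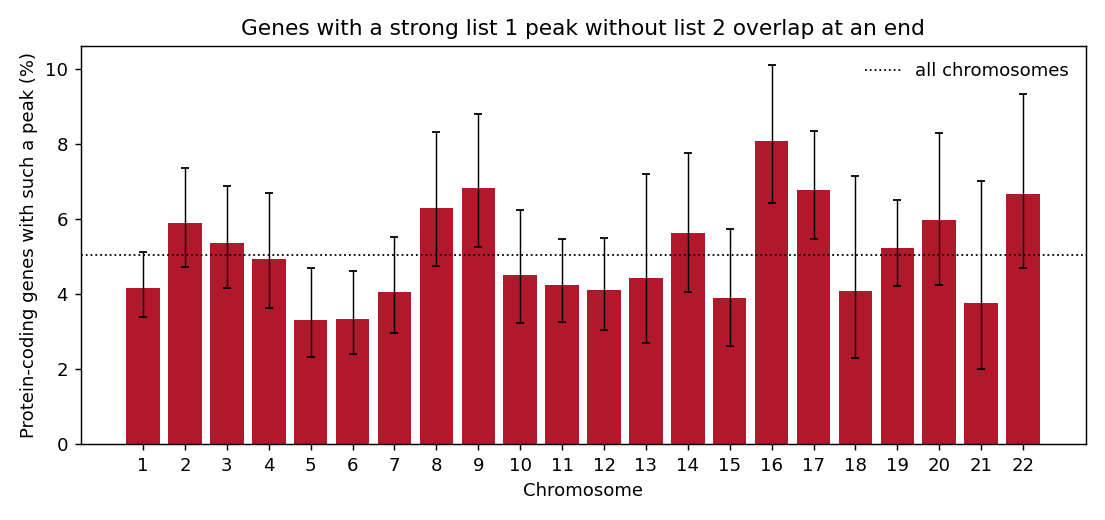
Share (%) of protein-coding genes of each chromosome with an unreplicated strong peak at an end, with 95% Wilson intervals, and the share over all chromosomes (5.05%) as a dotted line. Chromosome 16 is highest at 8.08% and chromosome 5 lowest at 3.32%.

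Genes of other types lay beside many of the peaks. An end of a long non-coding RNA gene was within 1000 bp of 149 peaks (18.4%, 15.9 to 21.2%), against 20.4% of the replicated and 15.0% (13.9 to 16.2%) of the weaker peaks. A microRNA gene was in reach of 12, among them MIR4738 at UNK, 158 bp from the midpoint of the peak of 425.15, and MIR3187 at PLPPR3 (187.93). The snoRNA genes SNORD15A, SNORD13F and SNORA7A lay beside peaks at RPS3, SF3B2 and RPL32. Such small genes lie inside or next to the protein-coding genes named, and the peaks do not separate them.

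At the score condition, the peaks just inside were BCL2L10 (107.24), GPR26 (107.12), EXOC7 (107.01), MX1 (106.88) and ECEL1 (106.74). Just outside were ATRNL1 (106.58), NOP14 (106.4), AQP8 (106.35), FAM117B (106.34) and COL1A1 (106.29). At the distance condition, LHFPL4, RTEL1 and RASGRP2 lay 994 bp and KCNJ3 998 bp from an end, while AP1B1 and LHX2 lay 1001 bp away. Both limits fall in unbroken runs of values.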

How the data were processed

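MTA1 ChIP and input libraries of HCT116 were made into peak lists by the authors. The submitters' processing notes name cutadapt, Bowtie2 and GRCh38, without versions. Peak names have the form that MACS writes, but no label or header names a caller or its settings. A deposited list gives peak positions and a score assigned by the authors' peak caller. The lowest score was 50 in both lists, its scale is not stated, and scores were used only within a list. Lists were called per replicate, and the control was taken from the number shared by the names. A further word in those names is not explained. No reads per library were used here, so depth is unknown.

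Gene ends came from a RefSeq table (GRCh38.p14) and strand and promoters from a second one, which held 15101 of the 19126 protein-coding genes, none of them on chromosome 8. Where a gene had several starts, the one nearest the peak was used for peaks and the outermost for gene sets, and equal distances went to the shorter symbol. Positions are 1-based. Overlaps used at least 1 bp, and intervals are 95% Wilson intervals. Overlaps, gaps between peaks, the assignment of gene ends and motif matching were tested on simulated data, and the Wilson intervals were not. Tools were Python 3.11.15, pandas 2.3.3, numpy 2.4.6, scipy 1.17.1 and matplotlib 3.10.9.

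The peaks, gene lists and tests were chosen with earlier results of these data known. Most genes were named by rule: the 25 best scores, up to 5 per list, both-end genes, the 5 closest to list 2, the 5 with most gene ends, and those at the limits. Genes named outside these rules were the back-to-back pairs, those with the element, those at 3′ ends, those at the narrowest and widest peaks, those beside small RNA genes, and those with many interior peaks. The back-to-back pairs were picked as examples and leave out pairs of similar score. The 12-letter element, the score bins, the CpG limit of 0.6, the 3′ set and the grouping of chromosomes were chosen after values were seen, and the letters of the other 11 motifs were shortened before they were counted. No test was run, because each list rests on 1 ChIP library. Alternatives varied score, distance, overlap, list 2 threshold, gene types and replicate.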

Additional observations from a re-analysis of the deposited data

Results flagged for a closer look

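On chromosome X, which the comparisons leave out, the same conditions found 4 peaks, at PRAF2 (116.72), IQSEC2 (114.22), MAGEH1 (113.3) and PSMD10, a proteasome subunit (110.05). They are noted because they lie in data outside the comparisons and no control list was used here. The chromosome held 172 list 1 peaks and 848 protein-coding genes.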

How the results depend on the processing

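Over 7 results and 12 settings, 56 values stayed within the main value's interval, or within 1.5 times the main count, and 25 moved; the causes were not tested. Taking the best 5% of list 1 gave 472 peaks, 574 genes, a 5′ share of 88.71% and an element share of 18.95%, and the best 20% gave 1391 peaks and 1626 genes. A distance of 500 bp gave a 5′ share of 91.04% and 16.58% with 2 or more gene ends, and 3000 bp gave 74.83% and 27.82%. Peaks that cover the gene end had a 5′ share of 88.31%. With genes of every type, 32.81% had 2 or more gene ends. The share with a list 2 peak within 10 kb was 34.22% when overlap meant at least 50% of both peaks and 33.45% with the better-scoring 50% of list 2.

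With the lists exchanged, so that list 2 peaks without list 1 overlap were taken, there were 107 peaks and 115 genes, a 5′ share of 73.49%, 6.542% with 2 or more gene ends, a median CpG ratio of 0.9023 and an element share of 5.085%. Without one replicate, the overlap condition dropped, the number of peaks ranged from 206 (list 2 alone) to 968 (list 1 alone), the genes from 226 to 1142, the 5′ share from 83.85 to 86.7%, the share with 2 or more gene ends from 10.19 to 19.01%, the median CpG ratio from 0.8625 to 0.8974 and the element share from 12.03 to 15.77%. The setting with list 2 alone was added after the data were seen. The distance to list 2 needs both lists and has no such value. No paired analysis was possible because each list is 1 ChIP library against 1 control and no result comes from a fitted test. The unknown depth of the libraries limits what absence from list 2 can show: such a peak was not called there, and its signal was not measured here.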
